A study of Mus musculus with 24 samples.

Results

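The genes described here are the potassium and calcium channel genes of the mouse, taken as the protein-coding genes of GENCODE vM21 on chromosomes 1 to 19 whose symbol starts with Kcn followed by letters and a number, or with Cacn. This rule used names alone and no measured value, and it gave 116 of 20807 autosomal protein-coding genes, of which 91 were potassium channel genes (Kcn) and 25 were calcium channel genes (Cacn). The X-linked family members lie outside the rule. Binding near these genes was read from chromatin immunoprecipitation sequencing (ChIP-seq) of 3 autism-associated transcriptional regulators (TRs) in wild-type (WT) mouse cortex kept on a CD1 background, dissected at E15.5 or E18.5 (days of embryonic development). ARID1B belongs to the BAF complex, which remodels chromatin. FOXP1 binds DNA through a forkhead domain, and TCF7L2 is a nuclear effector of Wnt signalling. The sample labels call the third TR TCF4, an older name of TCF7L2, and the study's antibody was raised against TCF7L2, so that name is used here.

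Each of the 6 combinations of TR and stage had 2 ChIP and 2 input libraries (24 libraries in all), and the authors merged replicates before calling peaks, which leaves 1 peak list per TR and stage. No group carried a mutation or a treatment, and the sources used here do not state how many embryos went into a library. With 1 list per group there is no replicate spread and no test between lists. Intervals on a peak are exact 95% Poisson intervals on the reads at its summit, intervals on a share are 95% Wilson intervals, and both cover counting error only. The cortex was sequenced as bulk tissue, so fewer cells carrying a bound site and weaker binding in each cell cannot be told apart.

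Potassium channels let potassium leave a neuron and so set its resting potential, the shape of its spikes and how often it can fire, whereas voltage-gated calcium channels turn depolarization into a calcium signal that drives transmitter release and gene expression. Both families work as assemblies: a pore-forming subunit carries the current, and auxiliary subunits govern its trafficking and gating. Many of their genes are switched on as cortical neurons mature, while others serve heart, skeletal muscle, kidney or secretory epithelia.

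The lists held between 24890 peaks (FOXP1 at E18.5) and 71442 peaks (ARID1B at E15.5). The ChIP library depth recovered from the peak values ran from 46.9 to 94.3 M reads (M for 1e6), and the background level from 2.81 to 8.63 reads per position, lowest for FOXP1 at E18.5. Accordingly, the smallest fold enrichment that could be called was 2.33 for ARID1B at E15.5 and 3.21 for FOXP1 at E18.5, so that weak binding could be missed more easily in the latter list. The tissue label was checked against markers: the cortical markers Emx1, Tbr1, Neurod2 and Slc17a7 had a promoter peak in all 6 lists, and the liver markers Alb and Apoa1 had none. Of the other markers, Hba-a1 (blood), Myh1 and Acta1 (muscle) had no promoter peak, whereas Ckm (muscle) had weak peaks in 5 lists. Striatal and thalamic markers were seen too, and Drd1, a striatal dopamine receptor gene, had its highest value of 59.1 for FOXP1 at E18.5 and 6.20 or less in the other lists. The part of neighbouring tissue in the channel results was not tested.

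The DNA under a selection of high peaks, with at least 1 for each TR, is shown first, since these places are described in the results. Each line gives the 200 bp around the summit of a peak on the plus strand of GRCm38 (mm10), read from the reference genome, and none of these stretches overlaps an annotated exon of the channel gene it is shown for. Capitals mark matches to 3 short motifs searched on both strands, TGTTTAC (forkhead core), ATCAAAG (TCF/LEF core) and CAGCTG (an E-box, which reads the same on both strands), and no 2 of them overlapped in the lines shown. The first lines are promoter peaks, that is, peaks that overlapped by at least 1 base the 2000 bp before a transcription start site (TSS) of the gene. The summit of such a peak can lie further upstream, as it does at Kcnn1 and Cacna1s. They are the FOXP1 peak upstream of Kcnn1 at E15.5 (chr8:70865636-70865835), which was the highest promoter peak of any channel gene, the ARID1B peaks at Cacna1s at E15.5 (chr1:136103008-136103207) and at Cacna1b at E18.5 (chr2:24763222-24763421), and the TCF7L2 peak just upstream of Kcnq3 at E15.5 (chr15:66286656-66286855).
Kcnn1 promoter peak: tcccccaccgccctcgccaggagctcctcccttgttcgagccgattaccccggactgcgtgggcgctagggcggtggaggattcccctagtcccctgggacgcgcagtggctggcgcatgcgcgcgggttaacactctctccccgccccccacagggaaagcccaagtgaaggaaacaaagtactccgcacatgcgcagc
Cacna1s promoter peak: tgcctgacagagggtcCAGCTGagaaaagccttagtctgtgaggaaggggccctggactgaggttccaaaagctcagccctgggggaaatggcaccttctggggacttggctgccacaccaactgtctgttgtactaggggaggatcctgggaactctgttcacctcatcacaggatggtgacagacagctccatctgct
Cacna1b promoter peak: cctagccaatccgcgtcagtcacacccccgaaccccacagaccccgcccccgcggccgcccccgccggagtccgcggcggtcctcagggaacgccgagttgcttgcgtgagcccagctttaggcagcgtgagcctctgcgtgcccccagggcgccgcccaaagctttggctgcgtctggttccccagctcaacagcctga
Kcnq3 promoter peak: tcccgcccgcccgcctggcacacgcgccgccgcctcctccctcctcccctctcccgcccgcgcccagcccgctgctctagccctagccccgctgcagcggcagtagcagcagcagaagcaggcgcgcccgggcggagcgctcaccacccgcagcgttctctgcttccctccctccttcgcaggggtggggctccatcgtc

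The next lines are a selection of high peaks away from the gene's own promoter, from loci that met no promoter of another gene. They are both FOXP1 peaks in an intron of Cacng4 at E18.5 (chr11:107784287-107784486 and chr11:107785168-107785367) and the ARID1B peaks at E18.5 in introns of Kcnq3 (chr15:66239222-66239421), Kcnn3 (chr3:89540082-89540281), Kcnip1 (chr11:33772778-33772977), Cacna2d2 (chr9:107456765-107456964) and Cacna2d1 (chr5:16134332-16134531). The last is the ARID1B peak at the 3′ end of Kcnk12 at E18.5 (chr17:87745408-87745607), whose summit lies just past the end of the gene.
Cacng4 intron, higher peak: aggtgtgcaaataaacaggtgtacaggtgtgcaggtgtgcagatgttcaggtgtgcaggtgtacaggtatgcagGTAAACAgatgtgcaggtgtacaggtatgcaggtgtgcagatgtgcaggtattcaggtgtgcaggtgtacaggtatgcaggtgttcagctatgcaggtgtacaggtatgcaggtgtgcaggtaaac
Cacng4 intron, lower peak: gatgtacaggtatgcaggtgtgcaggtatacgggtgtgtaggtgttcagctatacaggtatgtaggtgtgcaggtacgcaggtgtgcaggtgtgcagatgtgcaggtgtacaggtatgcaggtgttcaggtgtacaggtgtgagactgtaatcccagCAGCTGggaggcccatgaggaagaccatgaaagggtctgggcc
Kcnq3 intron: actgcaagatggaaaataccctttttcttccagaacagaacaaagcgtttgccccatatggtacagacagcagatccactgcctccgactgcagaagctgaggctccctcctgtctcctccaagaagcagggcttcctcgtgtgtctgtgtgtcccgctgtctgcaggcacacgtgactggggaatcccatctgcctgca
Kcnn3 intron: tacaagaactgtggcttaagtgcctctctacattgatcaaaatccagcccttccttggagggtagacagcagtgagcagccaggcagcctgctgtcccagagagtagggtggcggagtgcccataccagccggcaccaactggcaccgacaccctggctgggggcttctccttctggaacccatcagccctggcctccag
Kcnip1 intron: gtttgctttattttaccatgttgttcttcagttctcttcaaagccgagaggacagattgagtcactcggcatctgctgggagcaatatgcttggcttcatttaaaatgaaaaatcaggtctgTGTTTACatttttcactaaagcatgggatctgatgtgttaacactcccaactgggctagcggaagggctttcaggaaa
Cacna2d2 intron: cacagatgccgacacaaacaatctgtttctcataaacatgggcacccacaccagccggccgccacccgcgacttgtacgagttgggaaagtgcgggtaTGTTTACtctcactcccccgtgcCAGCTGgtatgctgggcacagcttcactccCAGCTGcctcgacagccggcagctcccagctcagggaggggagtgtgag
Cacna2d1 intron: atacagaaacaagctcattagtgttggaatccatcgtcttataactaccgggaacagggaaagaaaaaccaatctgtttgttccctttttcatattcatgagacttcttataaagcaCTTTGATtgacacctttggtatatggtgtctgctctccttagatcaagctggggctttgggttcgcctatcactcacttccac
Kcnk12 3′ end: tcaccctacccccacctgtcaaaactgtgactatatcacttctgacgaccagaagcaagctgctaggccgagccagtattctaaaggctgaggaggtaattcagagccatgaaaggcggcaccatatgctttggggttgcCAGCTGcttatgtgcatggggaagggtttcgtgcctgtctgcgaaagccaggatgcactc

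Most channel genes had the 3 TRs at their promoters. Of the 116 genes, 61 (52.6%, 43.6 to 61.4) had a promoter peak in all 6 lists, against 53.9% of all genes, and 23 (19.8%, 13.6 to 28.0) had one in no list, against 34.3% of all genes. The other 32 genes had promoter peaks in 1 to 5 lists, most often in 5 (14 genes). Thus the share bound throughout was near that of all genes, and the share never bound was lower.

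**Figure D1:**
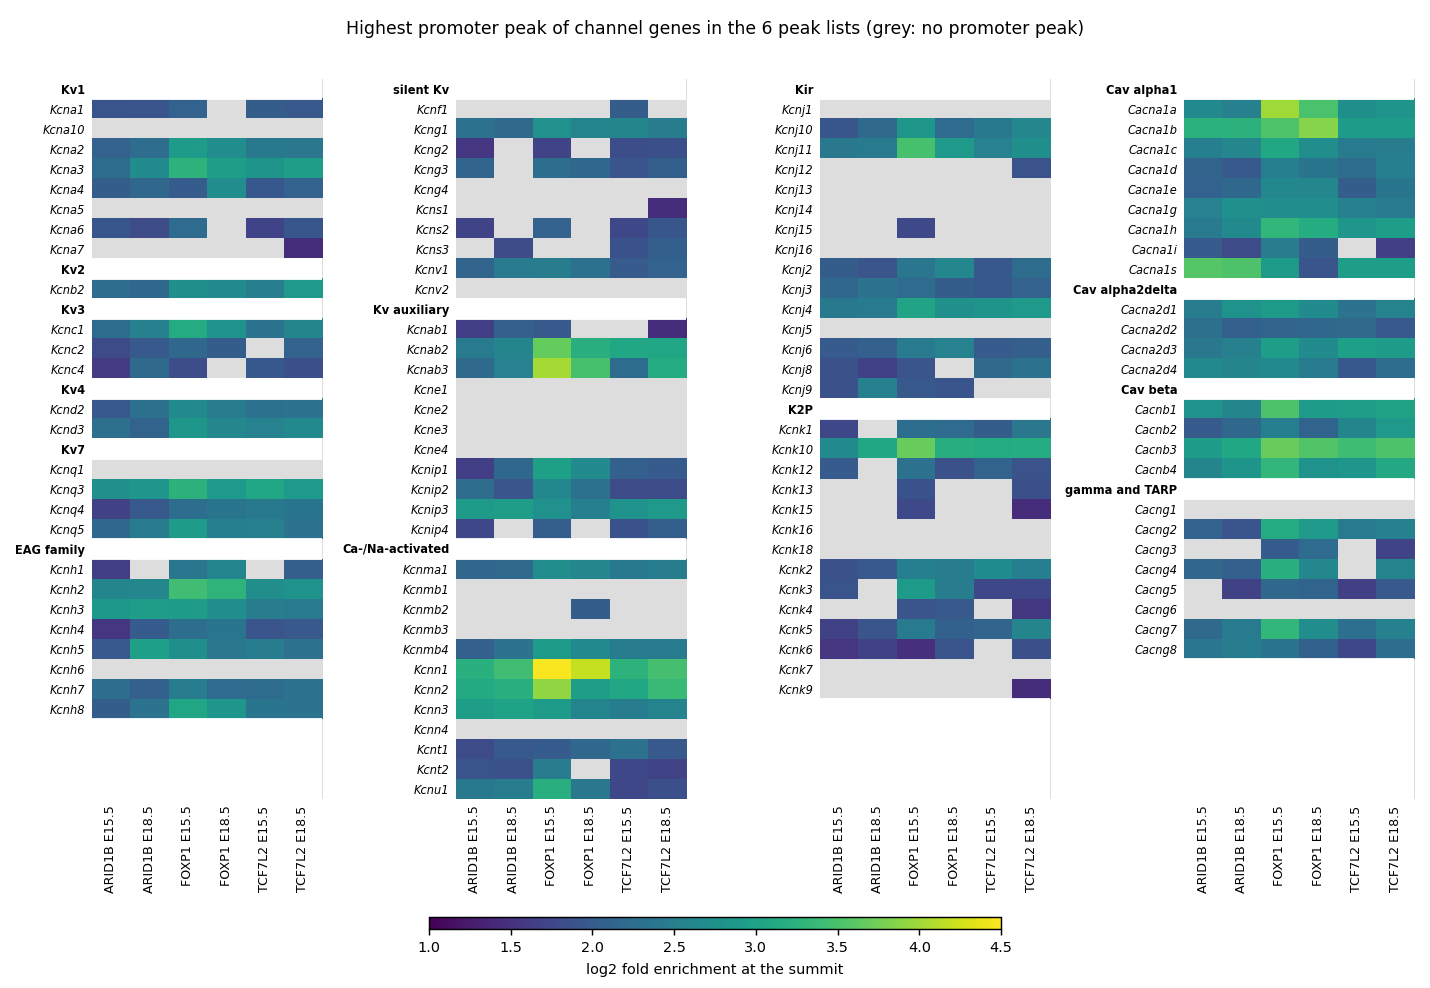
Heat map of the highest promoter peak of 113 channel genes (rows, by subfamily) in the 6 peak lists (columns), coloured by the log2 fold enrichment at the summit, with grey where no promoter peak was called. Rows that are coloured in all 6 columns make up most of the calcium channel panel, and wholly grey rows gather among the Kir and the auxiliary Kcne genes.

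In single lists, the channel genes with a promoter peak numbered 80 for ARID1B at E15.5 (69.0%, 60.1 to 76.7), where the share of all genes was 60.9%, and 74 at E18.5 (63.8%, 54.7 to 72.0), where it was 59.4%. FOXP1 was found at 86 promoters at E15.5 (74.1%, 65.5 to 81.2; all genes 63.4%) and at 75 at E18.5 (64.7%, 55.6 to 72.8; all genes 56.7%). TCF7L2 was found at 76 at E15.5 (65.5%, 56.5 to 73.5; all genes 59.1%) and at 89 at E18.5 (76.7%, 68.3 to 83.5; all genes 63%). A promoter peak of each of the 3 TRs was present at 73 genes at E15.5 (62.9%; all genes 57.4%) and at 66 genes at E18.5 (56.9%; all genes 54.9%). The interval of the channel genes lay above the share of all genes for FOXP1 at E15.5 and TCF7L2 at E18.5 and held it in the other lists. When peaks that also met the promoter of another gene were left out, an alternative chosen after seeing the data, the channel genes stood higher in all 6 lists, at 55.2% to 67.2% against 38.3% to 44.7% of all genes. This setting drops shared peaks but keeps every gene in the share. For ARID1B at E15.5 all genes fell from 60.9% to 43.2% and the channel genes from 69.0% to 62.9%. The wider gap thus also holds how often promoters are shared, and nothing about binding is read from it.

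The order of channel genes and all genes also depended on peak strength and list length. With each list cut to the same number of its strongest peaks, the channel genes were at 56.0% against 56.4% of all genes for FOXP1 at E15.5 and at 62.9% against 57.7% for TCF7L2 at E18.5, and for ARID1B they lay below all genes at both stages (32.8% against 42.2% and 31.9% against 41.7%). When peaks had to reach a −log10 p of 15 to be counted, the channel genes fell below all genes in 5 of the 6 lists. The shares became 37.1% against 45.3% for ARID1B at E15.5 (43 genes), 32.8% against 42.2% at E18.5 (38 genes), 36.2% against 46.6% for TCF7L2 at E15.5 (42 genes) and 46.6% against 52.6% at E18.5 (54 genes). For FOXP1 the shares were 57.8% against 56.6% at E15.5 (67 genes) and 23.3% against 43.7% at E18.5 (27 genes). All 3 TRs were then at 25.9% of the channel genes against 41.2% of all genes at E15.5 and at 19.8% against 36.8% at E18.5.

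**Figure D2:**
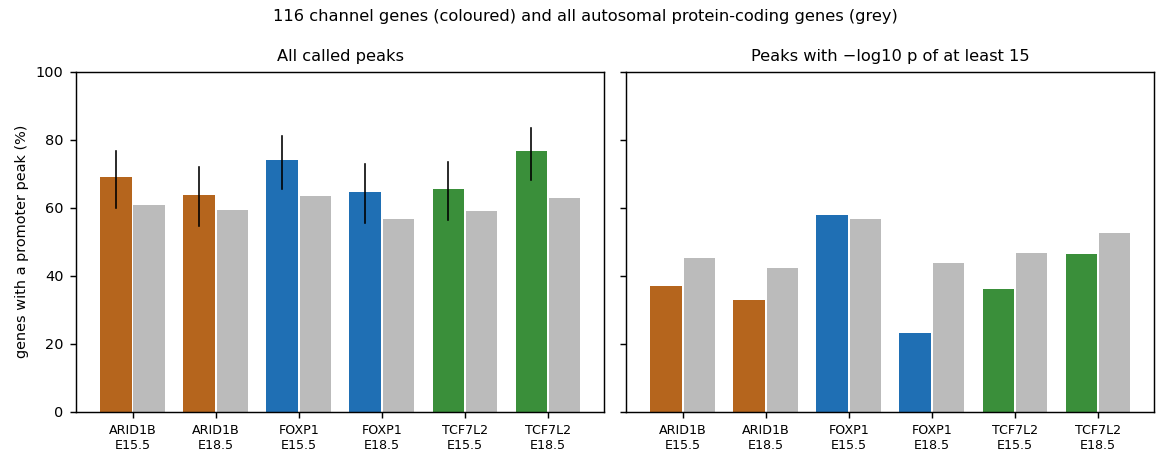
Share of genes with a promoter peak (vertical axis, percent, from 0) in each of the 6 lists, for the 116 channel genes (coloured) and for all 20807 autosomal protein-coding genes (grey), with all called peaks on the left (lines are 95% Wilson intervals) and peaks with a −log10 p of 15 or more on the right. On the left the channel genes range from 63.8% to 76.7% and all genes from 56.7% to 63.4%, and on the right the channel genes lie below all genes in 5 lists.

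The same contrast appeared in the peak heights. The fold enrichment used here is the deposited value at the summit, that is, ChIP reads over the background level of that list, and each gene is given by its highest promoter peak. The median over channel genes with a peak was 4.41 for ARID1B at E15.5, 6.58 for FOXP1 and 5.09 for TCF7L2, against 5.26, 10.8 and 6.50 over all genes with a peak. At E18.5 the medians were 4.98, 6.0 and 5.14, against 5.75, 8.80 and 6.68. Only 22 of 80, 11 of 86 and 18 of 76 channel genes at E15.5, and 23 of 74, 10 of 75 and 21 of 89 at E18.5, exceeded the median of all genes for ARID1B, FOXP1 and TCF7L2. The channel promoters were therefore often bound, but with lower peaks than most bound promoters.

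**Figure D3:**
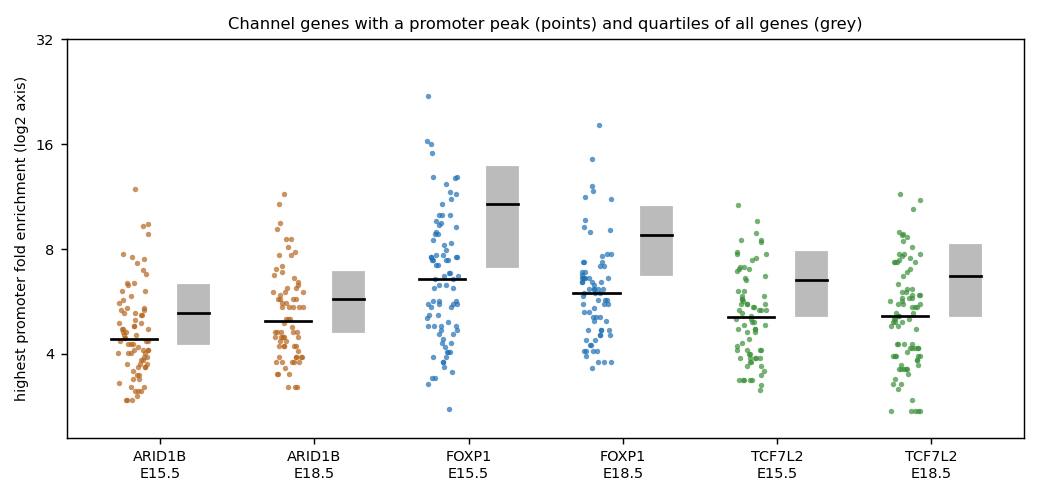
Fold enrichment of the highest promoter peak per channel gene (log axis, 1 point per gene) in the 6 lists, with the median of the channel genes (black line) and the quartiles and median of all genes with a peak (grey box). In each list the channel median lies below the median of all genes, and the gap is widest for FOXP1 at E15.5 (6.58 against 10.8).

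More of the calcium than of the potassium channel genes had a promoter peak in all 6 lists. Of the 25 Cacn genes 19 did (76%) and 2 had none, whereas of the 91 Kcn genes 42 did (46.2%) and 21 had none (23.1%), beside 53.9% and 34.3% of all genes. The Cacn genes also had more TSSs, a median of 7 against 3, and thus more promoter windows, whose part in this difference was not tested. The median fold enrichment of the Cacn genes was above that of the Kcn genes in each list, for example 5.44 against 4.10 for ARID1B at E15.5, 7.47 against 6.20 for FOXP1 at E15.5 and 5.80 against 4.93 for TCF7L2 at E18.5. These values carry no test.

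The pore-forming α1 subunits of calcium channels were bound in 8 of 9 cases in all 6 lists. Cacna1b, the N-type channel of presynaptic terminals, had the highest median of them. It was at 9.44 and 9.54 for ARID1B, 11.6 and 14.5 for FOXP1 and 7.55 and 7.66 for TCF7L2 (E15.5 first here and below), with summits between −170 and 6 bp from a TSS (negative values are upstream) in all 6 lists. Cacna1a, the P/Q-type channel that triggers release at most central synapses, was at 6.41 and 5.75 for ARID1B, 16.1 and 11.3 for FOXP1 and 6.71 and 7.01 for TCF7L2. FOXP1 values ran higher over all genes, and relative to the median of all genes in its list Cacna1b was at 1.79 and 1.66 for ARID1B, 1.08 and 1.65 for FOXP1 and 1.16 and 1.15 for TCF7L2. The L-type genes Cacna1c and Cacna1d, which link activity to transcription, ranged from 5.46 to 8.48 and from 3.93 to 5.70. Cacna1e, the R-type gene, ranged from 4.10 to 6.20. Of the T-type genes, which open near rest and support burst firing, Cacna1h ranged from 5.44 to 10.0 and Cacna1g from 5.47 to 6.73. Cacna1i, the third of them, was the exception: it ranged from 3.17 to 5.57 and had no TCF7L2 peak at E15.5.

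Cacna1s, the calcium channel of skeletal muscle excitation-contraction coupling, was also bound in all 6 lists. It was at 11.9 and 11.5 for ARID1B, the highest ARID1B promoter values of any channel gene, with intervals of 10.0 to 14.1 and 9.16 to 14.3. The values were 7.47 and 3.79 for FOXP1 and 7.75 and 7.77 for TCF7L2. In 5 lists this peak lay at one place inside the gene, with summits at −2298 to −2226 bp from an internal TSS, so it met the promoter of a shorter transcript and not that of the full-length gene. The FOXP1 peak at E18.5 was a different one, near the start of the gene.

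All 4 α2δ genes and all 4 β genes were bound in all 6 lists. These auxiliary subunits carry the channel to the membrane and tune its gating. Cacnb3 had the highest median of all channel genes, 11.1, with 7.57 and 8.56 for ARID1B, 12.9 and 11.7 for FOXP1 and 10.7 and 11.5 for TCF7L2. Its summits fell 62 to 123 bp downstream of a TSS, and its intervals overlapped between stages for each TR. Cacnb1 ranged from 6.03 to 11.5, Cacnb4 from 6.06 to 10.0 and Cacnb2 from 4.01 to 7.33. Among the α2δ genes the values were lower, from 5.26 to 7.86 for Cacna2d3 and from 5.04 to 7.47 for Cacna2d1 down to 3.94 to 4.90 for Cacna2d2.

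The γ family differed within itself. Cacng2, Cacng7 and Cacng8, of which Cacng2 (stargazin) and Cacng8 are regulators of AMPA receptors, were bound in all 6 lists, at 3.79 to 8.86, 4.64 to 10.0 and 3.37 to 5.61. Cacng4 lacked only a TCF7L2 peak at E15.5, Cacng5 lacked only ARID1B at E15.5, and Cacng3 had FOXP1 at both stages and TCF7L2 at E18.5. Cacng1 and Cacng6, which belong to skeletal muscle, had no peak of any kind in any list.

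Among the voltage-gated potassium channels, both Kv4 genes, 4 of 5 Kv7 genes, 6 of 8 EAG genes, 2 of 4 Kv3 genes and 3 of 8 Kv1 genes were bound in all 6 lists. Kcnq3, a subunit of the M-current that restrains repetitive firing, was at 6.77 and 7.15 for ARID1B, 9.49 and 7.33 for FOXP1 and 8.38 and 7.33 for TCF7L2. Kcnq1, the Kv7 channel of heart and inner ear, had no promoter peak in any list.

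Kcnc1, one of the Kv3 channels that allow fast spiking, ranged from 4.73 to 8.86. Kcnd2, a carrier of the dendritic A-type current, ranged from 3.93 to 6.33. Of the axonal Kv1 genes, Kcna2 ranged from 4.28 to 7.59, while Kcna1 was between 3.75 and 4.30 in 5 lists and without a peak for FOXP1 at E18.5. Kcna3 was the highest of the Kv1 genes, from 4.73 to 9.62, and Kcna5 and Kcna10 had no promoter peak. In the EAG family Kcnh3 had the highest median (6.95) and Kcnh4 the lowest (4.00), and Kcnh6 had no promoter peak.

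The silent Kv subunits, which do not form channels alone but modify Kv2, were bound in all 6 lists at 2 of 10 genes, Kcng1 (4.63 to 6.83) and Kcnv1 (4.00 to 5.57), and in none at Kcng4 and Kcnv2. Of the 11 Kv auxiliary genes, 5 were bound throughout. Kcnab2 had the highest median, 8.46, but its peak also covered the promoter of the neighbouring gene Nphp4. Kcnip3 ranged from 5.71 to 7.71 and Kcnip2 from 3.47 to 6.20. Kcne1, Kcne2, Kcne3 and Kcne4, small subunits best known from heart and epithelia, had no promoter peak in any list.

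The calcium-activated SK channels, which carry an after-hyperpolarization that follows spikes, held the highest potassium channel promoters. Kcnn1 was at 9.35 and 10.8 for ARID1B, 22.0 and 18.2 for FOXP1 and 9.63 and 11.1 for TCF7L2, with intervals of 18.9 to 25.5 and 15.2 to 21.7 for FOXP1. Its summits lay at −2554 to −2440 bp from the nearest own TSS in all 6 lists, and in 2 lists the peak also reached the promoter of the divergent gene A230052G05Rik. Kcnn2 was at 8.81 and 9.12, 15.1 and 7.77, and 8.49 and 10.4 for the 3 TRs, and Kcnn3 ranged from 5.56 to 8.13. Kcnn4, the form known from blood cells and epithelia, had no promoter peak. Kcnma1, the BK channel, ranged from 4.46 to 6.58, and of its β subunits Kcnmb4, the neuronal one, was bound in all 6 lists (4.19 to 7.59) whereas Kcnmb1 and Kcnmb3 had no peak. Kcnt1, a sodium-activated channel, shared with Kcnh4 the lowest median of the genes bound throughout (4.00, range 3.48 to 4.94).

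Inward rectifiers (Kir) and tandem-pore channels (K2P) were divided within themselves. Of 15 Kir genes, 6 were bound in all 6 lists and 5 in none. Among the former, Kcnj4 had the highest median (6.88) and Kcnj6, a subunit of G-protein-gated channels, the lowest (4.18). Kcnj10, the astrocyte channel that clears potassium, ranged from 3.84 to 7.21. Kcnj1, Kcnj5, Kcnj13, Kcnj14 and Kcnj16 had no peak of any kind. Of 14 K2P genes, 3 were bound throughout, namely Kcnk10 (6.41 and 8.56, 12.9 and 9.09, and 8.90 and 8.98), Kcnk2 (3.66 to 6.50) and Kcnk5 (3.21 to 6.02). Kcnk1 lacked only ARID1B at E18.5 and was between 3.39 and 5.25 elsewhere. Kcnk7, Kcnk16 and Kcnk18 had no promoter peak.

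In total 17 channel genes had neither a promoter nor a gene-body peak in any list: Kcna5, Kcng4, Kcnv2, Kcne1, Kcne2, Kcne3, Kcnmb1, Kcnmb3, Kcnj1, Kcnj5, Kcnj13, Kcnj14, Kcnj16, Kcnk16, Kcnk18, Cacng1 and Cacng6. The matching share of all genes was not counted, so no comparison is drawn from this number. A list of 12 members best known outside the nervous system (Cacna1s, Cacng1, Cacng6, Kcnu1, Kcnj1, Kcnj13, Kcnj15, Kcnk5, Kcnk16, Kcne1, Kcne3 and Kcnn4) had 8 (66.7%; all genes 34.3%) without a promoter peak and 3 (Cacna1s, Kcnu1 and Kcnk5) with one in all 6 lists. The list is not complete, since Kcnq1, Kcne2 and Kcne4, also best known from other organs, are not on it. The 4 members in the study's list of autism-associated genes, Cacna1e, Cacna2d3, Kcnma1 and Kcnq3, all had a promoter peak in all 6 lists, as did 53.9% of all genes, with values from 4.10 to 9.49.

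Partners of the channels outside the naming rule were examined too. Of 34 genes on a fixed list, 21 (61.8%; all genes 53.9%) had a promoter peak in all 6 lists and 6 (17.6%; all genes 34.3%), Abcc9, Kcnrg, Lrrc38, Lrrc52, Rem1 and Stac3, in none. The calmodulin genes Calm2 and Calm3, whose protein is the calcium sensor of SK and Kv7 channels, reached 21.3 and 21.5 for FOXP1 at E15.5. Dpp6 and Dpp10, the Kv4 partners, ranged from 3.89 to 6.44 and from 3.16 to 5.27. Of the store calcium channels, Itpr1 had 13.4 for FOXP1 at E15.5, and Itpr3 had a peak in 2 lists only.

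The order of the genes was alike between lists. Over the 61 genes bound throughout, the rank correlation (Spearman) of the fold enrichment between stages was 0.79 for ARID1B, 0.85 for FOXP1 and 0.83 for TCF7L2, and between different TRs of the same stage it was between 0.50 and 0.66. These correlations are across genes, which are no replicates, and the lists share the tissue and the base composition of the promoters. Neighbours in the order mostly had overlapping intervals. For ARID1B at E15.5, for example, the values of Cacna1s (10.0 to 14.1) and Cacna1b (7.74 to 11.4) could not be told apart by counting error.

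Promoters were shared with neighbouring genes at some members. In each list the highest peak of 12 to 18 channel genes also met the promoter of another gene. Kcnab3, a β subunit of Kv1, is the clearest case: its FOXP1 peaks of 16.3 and 11.2 covered the promoters of Trappc1 and Cntrob, more than 2000 bp upstream of its own nearest TSS. Most summits were near a TSS of the channel gene, with 52 to 75 genes per list within 500 bp.

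Between E15.5 and E18.5 the promoter values of single genes differed little once the lists were put on one scale. The median ratio of E18.5 to E15.5 over all genes was 1.08 for ARID1B (0.11 on the log2 scale), 0.782 for FOXP1 (−0.35) and 1.06 for TCF7L2 (0.08), and each gene's ratio was divided by it. The relative ratio had a median of 1.01 over 72 channel genes for ARID1B, 1.08 over 74 for FOXP1 and 1.00 over 75 for TCF7L2. For FOXP1, 51 channel genes lay above 1 and 23 below, and with 1 list per stage this was not tested. No FOXP1 value under 3.21 was called at E18.5, so genes with low values at E15.5 could not enter with a low ratio.

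**Figure D4:**
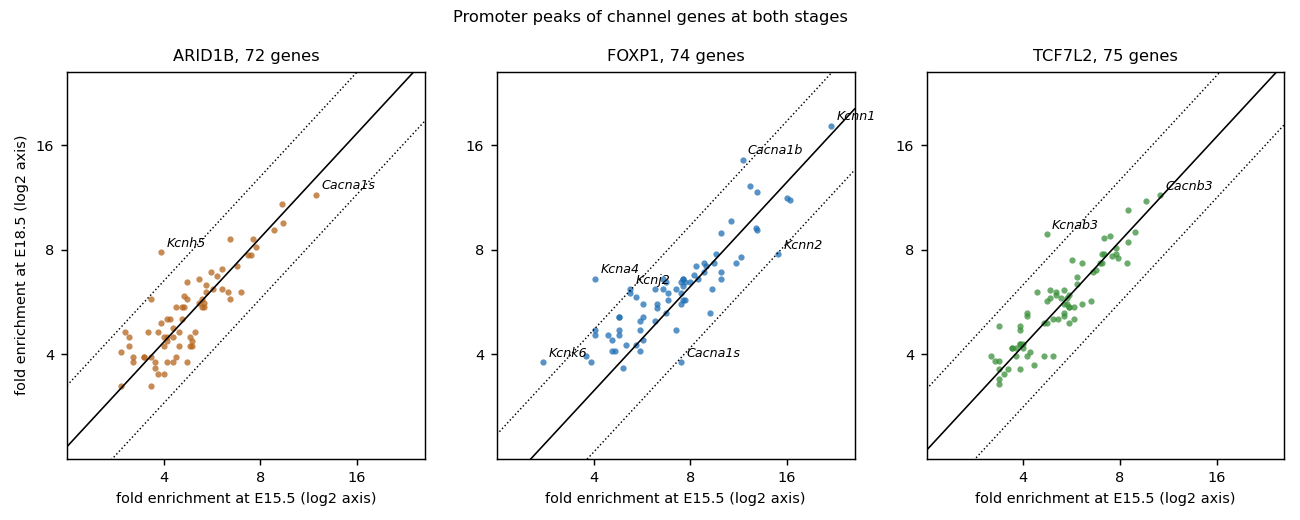
Fold enrichment of the highest promoter peak at E18.5 (vertical, log axis) against E15.5 (horizontal, log axis) for the channel genes with a peak at both stages, 1 panel per TR, with a solid line for the median ratio of all genes and dotted lines 1.5-fold above and below it. Most points lie near that line. The points at least 1.5-fold off it are Kcnh5 for ARID1B, Kcna4, Kcnk6, Cacna1b, Kcnj2, Cacna1s and Kcnn2 for FOXP1 and Kcnab3 for TCF7L2.

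For ARID1B, 1 channel gene was at least 1.5-fold higher at E18.5, against 0.346% of all genes, and none was lower, against 0.569%. With a promoter of 1000 bp 0 were higher and 1 was lower, and without the division by the median ratio 3 were higher. That gene was Kcnh5, an EAG channel, at 3.93 (2.87 to 5.25) and 7.85 (5.95 to 10.2). Its highest peaks at E15.5 and E18.5 lay at different places, although the gene has only 1 TSS. No gene passed when the highest peaks of both stages had to overlap. The next highest ratios were those of Kcnj9, from 3.66 to 5.75, and Kcnc4, from 3.04 to 4.63, and the lowest was that of Kcnip2, from 4.73 to 3.79.

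For FOXP1, 4 genes were at least 1.5-fold higher (2.2% of all genes) and 2 were lower (4.65% of all genes). Kcna4, an A-type channel of axons, was at 4.05 (2.79 to 5.70) and 6.59 (4.84 to 8.79), and Kcnk6 at 2.78 and 3.79, Cacna1b at 11.6 and 14.5 and Kcnj2 at 5.19 and 6.15. All 4 of these pairs had overlapping intervals. The E15.5 value of Kcnk6 lay under 3.21, the smallest value called at E18.5. With a peak required at both stages, its ratio could only come out higher. On the lower side were Kcnn2, at 15.1 (12.5 to 18) and 7.77 (5.85 to 10.1), and Cacna1s, at 7.47 and 3.79, where the highest peak was at a different place. Kcnu1, the sperm channel, was next, at 9.24 (7.26 to 11.6) and 5.27 (3.73 to 7.25). Without the division by the median of all genes, 1 channel gene was at least 1.5-fold higher (0.221% of all genes) and 8 were lower (18.3% of all genes).

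For TCF7L2, 1 gene was higher (0.262% of all genes) and none was lower (0.221% of all genes). It was Kcnab3, at 4.73 and 8.87, with the higher peak at the shared Trappc1 promoter, and none passed when the peaks of both stages had to overlap. With a promoter of 1000 bp 0 were higher and 1 was lower.

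Some promoter peaks were present at 1 stage only. ARID1B had 8 such channel genes at E15.5 (2.6% of all genes), led by Kcng3 (4.37), Kcnk12 (4.01) and Kcnk3 (3.75), and 2 at E18.5 (1.16% of all genes), Kcns3 (3.51) and Cacng5 (3.23). FOXP1 had 12 at E15.5 (6.78% of all genes), led by Kcnt2 (5.57), Kcna6 (4.68), Kcna1 and Kcns2 (4.30 each), and 1 at E18.5 (0.0769% of all genes), Kcnmb2 (4.09). TCF7L2 had 1 at E15.5 (0.317% of all genes), Kcnf1 (4.10), and 14 at E18.5 (4.14% of all genes), led by Cacng4 (5.91), Kcnc2 (4.27) and Kcnh1 (4.16). The larger number stood on the side of the longer list in each TR. With all lists reduced to the same number of their strongest peaks, FOXP1 had 1 at E15.5 and 11 at E18.5, so the direction for FOXP1 depends on the list length. With peaks under 3.21 left out of both FOXP1 lists, the number at E15.5 only was again 12 and that at E18.5 only was 2. The part of depth was not tested further.

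Channel genes are long, with a median of 42.5 kb against 17.6 kb for all genes, and many peaks lay inside them. A gene-body peak was taken as one that overlaps the gene but no promoter of that gene. ARID1B had one in 75 channel genes at E15.5 (64.7%; all genes 34.3%) and 72 at E18.5 (62.1%; all genes 34%), with 452 and 423 peaks. FOXP1 had one in 77 at E15.5 (66.4%; all genes 35%) and 55 at E18.5 (47.4%; all genes 18.7%), with 365 and 97 peaks. TCF7L2 had one in 51 at E15.5 (44.0%; all genes 23.5%) and 73 at E18.5 (62.9%; all genes 32.6%), with 129 and 267 peaks. With each list cut to the same number of its strongest peaks, FOXP1 had one in 49 and 55 channel genes (E15.5 first). These were 42.2% and 47.4%, against 17.1% and 18.7% of all genes. TCF7L2 then had one in 42 and 40 (36.2% and 34.5%, against 18.2% and 18.2% of all genes). The stage direction of these counts thus depends on the list length.

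Length moved with these shares. Per 100 kb of gene the channel genes held 2.97 and 2.78 ARID1B peaks, against 2.98 and 2.86 in all genes, and 2.40 and 0.637 FOXP1 peaks against 2.56 and 0.657. For TCF7L2 the densities were 0.847 and 1.75 against 1.13 and 2.18. Within length classes the channel genes of 30 to 100 kb had a gene-body peak of ARID1B at E15.5 in 22 of 31 cases (71.0%) against 50.4% of all genes of that length. Above 300 kb all 19 had one against 98.2%. The ARID1B density at E15.5 was higher in channel genes in each length class up to 300 kb, from 7.71 against 3.47 per 100 kb under 10 kb to 3.83 against 3.45 between 100 and 300 kb, and lower above 300 kb, 2.46 against 3.28. Between 80.4% and 93.4% of the summits lay in introns.

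Gene-body peaks were spread unevenly over the channel genes. Cacna2d1, the α2δ subunit that binds gabapentin, had 36 and 29 ARID1B peaks and 23 FOXP1 peaks at E15.5, in 440 kb. Cacna2d3 had 28 and 31 ARID1B peaks and 21 FOXP1 peaks at E15.5, in 817 kb. Cacna1c had 28 and 20 ARID1B peaks, 24 FOXP1 peaks at E15.5 and 14 TCF7L2 peaks at E18.5, in 609 kb. At E15.5 all genes above 300 kb held 3.28 ARID1B and 2.47 FOXP1 peaks per 100 kb, so length has to be read beside these counts. Among potassium channels Kcnn3 stood out for its size: in a gene of 155 kb it held 24 and 24 ARID1B peaks, 23 and 2 FOXP1 peaks and 12 and 15 TCF7L2 peaks. Kcnip1 held 17 and 18, 16 and 2, and 8 and 12 in the same order, and Kcnd3, the other A-type pore gene, 18 and 17, 15 and 2, and 4 and 14. Cacna1b differed in kind, with 16 ARID1B peaks at each stage and 1 FOXP1 peak at each.

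Some genes without a promoter peak were bound within. Kcnq1, a gene of 321 kb, had 37 gene-body peaks over the 6 lists. Gene-body peaks are usual at that length: 98.2% of all genes above 300 kb had one of ARID1B at E15.5. Kcne4 had 1 in each list, at the 3′ part of its gene, with values of 5.88 and 6.03 for ARID1B, 6.71 and 5.27 for FOXP1 and 4.31 and 5.47 for TCF7L2.

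When overlapping peaks of the 3 TRs were merged into loci, sharing was frequent at promoters and less so in gene bodies. At E15.5, 92 of 148 promoter loci of channel genes (62.2%) held all 3 TRs, against 66.1% of all promoter loci, and 93 of 544 gene-body loci (17.1%) did, against 18.1% of all loci away from promoters. At E18.5 the numbers were 90 of 171 (52.6% against 57.2%) and 51 of 500 (10.2% against 10.4%). Kcnn3, with 8, and Kcnip1, with 7, had most gene-body loci with all 3 TRs at E15.5. ARID1B alone made up 188 (E15.5) and 233 (E18.5) of the gene-body loci.

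For ARID1B and FOXP1 the highest values of any channel gene lay in gene bodies, whereas for TCF7L2 they lay at the promoter of Cacnb3 (10.7 and 11.5, against 10.5 and 10.4 in the Kcnk12 gene body). Over the 6 lists, 675 gene-body loci were formed in channel genes, and 24 of them, in 20 genes, reached a fold enrichment of 10 in at least 1 list. Of these, 22 had their summit in an intron, 1 in an exon (Kcnab3) and 1 just outside the gene (Kcnk12), and 12 had a peak in all 6 lists. Peaks of 10 or more made up 2.65% and 3.31% of the ARID1B gene-body peaks of channel genes at E15.5 and E18.5, against 2.41% and 3.30% over all genes. For FOXP1 the shares were 2.74% and 7.22% (10 and 7 peaks) against 2.39% and 4.40%, and for TCF7L2 0.775% and 0.749% (1 and 2 peaks) against 0.824% and 0.567%.

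**Figure D5:**
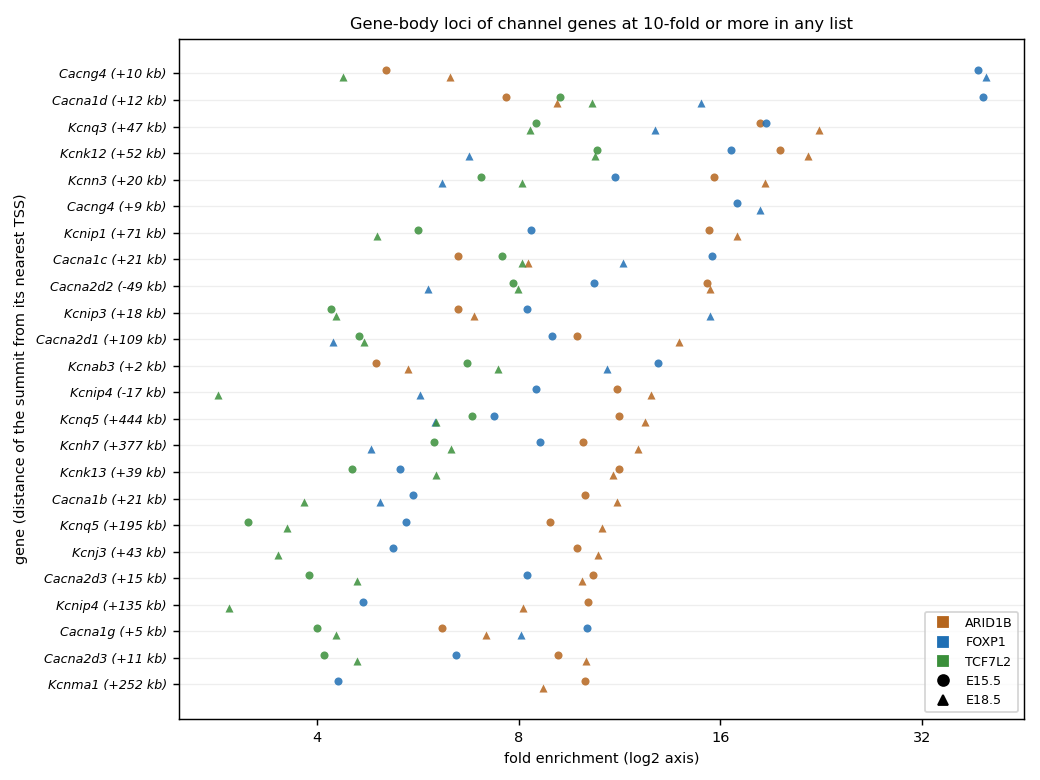
Fold enrichment in the 6 lists at the 24 gene-body loci of channel genes that reached 10 in at least 1 list (rows named by gene, log axis, 1 symbol per list, no symbol where no peak was called). FOXP1 stands far to the right at the top Cacng4 locus (38.7 and 39.9), and ARID1B is the highest TR at both stages at Kcnk12, Kcnn3, Kcnip1 and Cacna2d2.

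Cacng4, a regulator of AMPA receptors, held the highest. In the intron locus at chr11:107783860-107784716, 10170 bp downstream of a TSS, FOXP1 was at 38.7 (34.5 to 43.3) and 39.9 (35.3 to 44.9). ARID1B was at 5.08 and 6.31 there and TCF7L2 at 4.38 at E18.5 only. The locus is the first Cacng4 line printed above, and its FOXP1 window holds 1 forkhead core. The other Cacng4 locus, 9289 bp downstream of that TSS, had FOXP1 alone, at 17 and 18.4, and its window holds an E-box and no forkhead core. FOXP1 thus stood far above the other TRs at the first place and without a called partner at the second. Both printed windows are made largely of similar short units in a row. The reference soft-masks 9.5% of the window of the higher locus and 23.5% of that of the lower. The part of this repetition in the FOXP1 values was not tested.

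Cacna1d held a locus of similar height at E15.5. At chr14:30479187-30480169 FOXP1 was at 39.5 (35.2 to 44.1) at E15.5 and 15 (12.2 to 18.2) at E18.5. ARID1B was at 7.66 and 9.12 and TCF7L2 at 9.22 and 10.3. This place lies in a Cacna1d intron but at the promoter of Dcp1a, a gene of mRNA decapping. In the same way the strong Cacna1c locus, with FOXP1 at 15.6 and 11.4, lies at the promoter of Dcp1b. The channel gene and the neighbour cannot be told apart at these places.

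The loci with high ARID1B named next met no promoter of another gene. In the Kcnq3 intron 46729 bp from the nearest own TSS (chr15:66238765-66240419), ARID1B was at 18.3 (15.9 to 21.0) and 22.4 (19.1 to 26.2). FOXP1 was at 18.7 and 12.8 and TCF7L2 at 8.49 and 8.32, so the intron exceeded the Kcnq3 promoter for ARID1B and FOXP1 at both stages, with intervals apart, whereas for TCF7L2 the intervals of intron and promoter overlapped. At the end of Kcnk12, a tandem-pore channel, ARID1B was at 19.7 and 21.6, FOXP1 at 16.6 and 6.74 and TCF7L2 at 10.5 and 10.4, whereas its promoter stayed at 4.94 or less. In Kcnn3 ARID1B was at 15.7 and 18.7, and in Kcnip1, a modulator of Kv4 channels, at 15.4 and 17, where FOXP1 was at 8.35 and not called. Cacna2d2 had 15.3 and 15.4 for ARID1B and 10.4 and 5.85 for FOXP1, in a window with a forkhead core and E-boxes. Cacna2d1 had 9.79 and 13.9 for ARID1B, in a window with a TCF/LEF core.

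A locus with higher FOXP1 at E18.5 lay in Kcnip3, a calcium sensor of Kv4 channels, whose intron was at 8.23 (6.36 to 10.5) at E15.5 and 15.4 (12.6 to 18.7) at E18.5. There ARID1B was at 6.50 and 6.87 and TCF7L2 at 4.21 and 4.27. Repeat sequence (soft-masked in the reference) makes up 58.5% of the 200 bp around this summit, the highest share of the 24 loci, and its part in the value was not tested.

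Genes with promoter peaks throughout had promoter windows rich in CpG. The CpG ratio is observed over expected CpG, taken for each gene from the promoter window where it was highest. Its median was 0.525 over the 61 channel genes with peaks in all 6 lists, 0.423 over the 32 with some and 0.252 over the 23 with none. The medians of all genes in the same classes were 0.517, 0.341 and 0.175. Genes with more TSSs have more windows to take the highest from. The median number of TSSs was 4, 2 and 2 in these classes of channel genes and 5, 3 and 2 in those of all genes. The part of this in the CpG order was not tested. Of the 22 channel genes with a ratio of at least 0.6, 19 (86.4%) were bound in all 6 lists, against 93.1% of all genes in that class. Of the 42 between 0.4 and 0.6, 25 (59.5%) were, against 84.9%. Of the 42 between 0.2 and 0.4, 17 (40.5%) were, near the 40.6% of all genes. Below 0.2 none of 10 was, against 2.16% of all genes, and 8 (80%) had no promoter peak in any list, against 92.3%. Kcnq1 was the only channel gene above 0.4 with no promoter peak. Within the highest class the FOXP1 values at E15.5 still had a lower median in channel genes, 7.59 against 12.7.

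The short motifs differed in how often they occurred at the channel promoters. The RefSeq promoter table (250 bp before to 50 bp after the start) held 120 entries for 86 of the 116 members. The forkhead core was in none of them (3.65% of all 32851 promoters in the table), the TCF/LEF core in 3 (Kcne4, Kcnj16 and Kcnk2; 2.50% against 3.73%) and the E-box in 34 (28.3% against 16.3%). The left and right parts of the REST element, TTCAGCACC and GGACAG within 25 bp, were found at 1, Kcnh6 (0.833% against 0.0396%). In the 200 bp around the summits the forkhead core was in 0.885% to 2.76% of the promoter peaks of channel genes and in 3.84% to 5.43% of their gene-body peaks over the 6 lists, against 1.09% to 1.59% and 2.38% to 3.86% for all genes. The E-box was in 12.7% to 20% of the promoter peaks and in 13.4% to 21.5% of the gene-body peaks, against 11.3% to 15.2% and 15.1% to 21.1% for all genes. A match describes the letters only, and no match says nothing about the factor.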

How the data were processed

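ChIP-seq libraries of wild-type mouse cortex (2 ChIP and 2 input libraries per TR and stage) were single-end and made from fixed, sonicated nuclei. Per the labels and methods, the authors aligned reads to mm10 with BWA 0.7.15, filtered them with SAMtools, checked replicates with IDR, merged them and called peaks with MACS2 2.2.7 (fixed background, fragments extended to 200 bp). The sources used here do not state how duplicate reads were treated. The deposited narrowPeak lists give each peak's position, a fold enrichment (a ratio of ChIP pileup to background, with a pseudocount of 1), −log10 p-values and −log10 q-values, and a score that was not used. Since the lists were called on merged replicates, the numbers of the replicates could not be used, and groups were taken from the sample labels.

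Whole reads at each summit were recovered from the fold enrichment and −log10 p of each list, which gave the background and the relative depth. The recovery, the assignment of peaks and the motif search were tested on simulated data. Genes and TSSs came from GENCODE vM21, where the study used a later release, so a few TSSs may differ. A promoter was the 2000 bp upstream of any TSS, and an overlap of 1 base counted. Peaks off the autosomes (364 to 799 per list) were left out. No test was made between lists. Peaks that met another gene's promoter were counted for both genes and left out in an alternative. Called between stages meant a fold of 1.5 after division by the median ratio of all genes. CpG, motifs and sequences were read from GRCm38 and from RefSeq promoters. Python 3.11.15, pandas 2.3.3, scipy 1.17.1, pysam 0.24.0 and samtools 1.23.1 were used.

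The genes, lists and tests were chosen with earlier results of these data known. Genes were named by a fixed rule: the highest promoters, the most and the highest gene-body peaks per list, the largest stage ratios, the highest peaks seen at 1 stage only, the highest and lowest bound member per subfamily, all members without peaks, the autism list and well-known cortical channels. Other genes were named after their values were seen: Cacng7, Cacng5, Cacng3, Kcnc4, Kcnmb4, Kcnj5 and partners with their values. Some genes are not reported here by name, and counts over the families include them.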

Additional observations from a re-analysis of the deposited data

How the results depend on the processing

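Of 132 values under alternative settings, 86 stayed within 1.5 times the reported one. No value moved further when the promoter was set to 1000 bp, reached 500 bp downstream, used TSSs of protein-coding transcripts, or required the summit inside the promoter or gene, nor when peaks at any gene's promoter were left out of gene bodies. With only peaks of −log10 p of at least 15, promoter counts were 43 and 38 for ARID1B (E15.5, E18.5), 42 and 54 for TCF7L2 and 27 for FOXP1 at E18.5, and 30 and 23 genes had all 3 TRs (25.9% and 19.8%, against 41.2% and 36.8% of all genes). Genes with a gene-body peak then numbered 43 and 41 for ARID1B (37.1% and 35.3%, against 17.6% and 16.7% of all genes). For FOXP1 they numbered 51 and 9 (44.0% and 7.76%, against 17.6% and 4.55%). For TCF7L2 they numbered 19 and 27 (16.4% and 23.3%, against 7.6% and 11.1%). In the same order, there were 0.978 and 0.860, 0.748 and 0.0788, and 0.158 and 0.269 peaks per 100 kb of channel gene. FOXP1 was at 1 stage only in 41 genes at E15.5 and ARID1B in 5 at E18.5. With each list cut to the 24526 peaks of the shortest, promoter counts were 38 and 37 for ARID1B (32.8% and 31.9%, against 42.2% and 41.7% of all genes), and 33 and 35 genes had all 3 TRs (28.4% and 30.2%, against 41.4% and 40.7%), so these shares turned from above to below those of all genes. Genes with a gene-body peak were 39 and 41 for ARID1B (33.6% and 35.3%, against 16.3% and 16.5% of all genes). There were 49 for FOXP1 at E15.5 (42.2% against 17.1%) and 40 for TCF7L2 at E18.5 (34.5% against 18.2%). Peaks per 100 kb were 0.854 and 0.854 for ARID1B, 0.670 for FOXP1 at E15.5 and 0.492 and 0.519 for TCF7L2. Genes bound at 1 stage only were then 5 for ARID1B at E18.5, 1 and 11 for FOXP1, and 3 and 8 for TCF7L2 (E15.5, E18.5). At a common height of 3.21, FOXP1 had 12 at E15.5 only, the reported number, and 2 at E18.5 only. With a promoter of 1000 bp the 1 stage call of ARID1B and the 1 of TCF7L2 changed from higher to lower at E18.5 (0 higher and 1 lower for each). With a fold of 2 between stages the counts were 0, 1 and 0 for ARID1B, FOXP1 and TCF7L2, and without the division by the median ratio ARID1B had 3. Requiring the highest peaks of both stages to overlap, an alternative added after seeing the data, left 0 for ARID1B and 0 for TCF7L2. The cause of these changes was not tested beyond the fewer peaks that the stricter settings keep. No paired analysis was possible because each list merges its replicates, and for the same reason leaving out a replicate could not be run. Peaks under a fold enrichment of 2.33 (ARID1B at E15.5) to 3.21 (FOXP1 at E18.5) were not detectable at the depth of the lists.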
